A study of Mus musculus with 5 samples.

Results

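The ephrin, semaphorin, slit and netrin guidance genes were examined in cultured neural stem and precursor cells of the adult mouse subventricular zone. Members were taken by symbol, as every gene whose name is that of an ephrin, an Eph receptor, a class 3 to 7 semaphorin, a plexin, a neuropilin, a Slit, a Robo receptor, a netrin, Dcc or an Unc5 receptor. The rule found 68 of 46078 genes, of which 34 encode ligands and 34 encode receptors. Expression was measured by stranded, poly-A selected RNA-seq as TPM, a length-corrected share of all transcripts in a library. It can be compared between genes, but between libraries a share also depends on the other transcripts. A total of 51 members had a mean TPM of at least 1 over the libraries and were tested in a fit over 13870 genes, while the remaining 17 were too low to be tested.

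The cells came from C57BL/6 mice without a mutation, labelled as female and 5 to 8 weeks old (the study's methods give a higher age), and were grown on plates coated with poly-D-lysine. All 5 libraries were sham controls to which PBS was added in place of hydrogen peroxide, and RNA was taken after 1 h (n = 2, replicates 1 and 2) or 8 h (n = 3, replicates 13, 14 and 15). The time after PBS was thus the only contrast in the labels, and libraries of peroxide-exposed cells were not analysed here. The study defines a biological replicate of these cells as an animal, so p-values here measure the spread between these cultures. Markers of neural stem and precursor cells were high (9 of 9 markers at a mean TPM of at least 1, summed TPM 9198 to 11989), together with oligodendrocyte lineage markers (6 of 7, summed TPM 1559 to 2412). Summed neuronal markers lay between 40.0 and 60.4 TPM (4 of 5 at a mean TPM of at least 1). Ependymal markers summed to between 16.3 and 27.5 TPM, but only 1 of 4 had a mean TPM of at least 1. That marker was Foxj1 (mean 19.2 TPM), while Tmem212 was at 0 throughout. The endothelial, mural and microglial lists each stayed at or under 2.25 TPM in every library, with Cldn5, Cdh5, Aif1 and Tmem119 at 0 throughout.

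These proteins tell growing axons and migrating cells where to go. Ephrins are bound to the cell surface and signal in both directions with Eph receptor tyrosine kinases, whereas semaphorins act through plexins, with neuropilins as co-receptors for most of class 3. Slits bind Robo receptors and mostly repel, and netrins attract through Dcc or repel through Unc5 receptors. In the adult subventricular zone, ephrins and Eph receptors are known to influence precursor proliferation, and Slits to steer the neuroblasts that leave for the olfactory bulb.

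The libraries did not all go with their labels, and this bears on each comparison of time. Xist, the RNA that coats the inactive X chromosome of female cells, was at 165 and 200 TPM in series 2 and at 0.0611 TPM or less in the other 3 libraries. The 4 Y-linked genes Uty, Kdm5d, Eif2s3y and Ddx3y together reached 181 and 138 TPM at 1 h and 158 TPM in 8 h replicate 14, and were at 0.0253 and 0 TPM in the Xist-expressing pair. The same split is made by the library identifiers in the labels, which fall into 2 number series of a meaning not given in the sources used here. Identifier series 1 holds both 1 h libraries and 8 h replicate 14, and series 2 holds 8 h replicates 13 and 15, and values by series are given in that order. Identifier series and Y-linked expression coincide in every library and cannot be told apart, and time can be separated from them only through 8 h replicate 14. In fits with both time and series as terms, that library stands alone, so their p-values hold no measured spread for it. The placing of replicate 14 is itself in doubt: in the count table, the column with its identifier matched no TPM table, and its TPM values matched a column with a series 2 identifier. Each series result below rests on the series as the labels give it. Depth, read from the ratio of coverage to FPKM, differed little (5.57 to 7.18).

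Guidance transcripts were present in every library, mostly at low to moderate levels. The 68 members summed to between 1172 and 1298 TPM per library, with a mean of 597 TPM for ligands and 643 TPM for receptors. Only 2 members exceeded a mean of 100 TPM, 25 lay between 10 and 100 TPM, 24 between 1 and 10 TPM and 17 under 1 TPM. No member was at 0 in all libraries, and 6 were at 0 in at least 1. When members were ordered by mean TPM, 66 of 67 neighbouring pairs overlapped between libraries, so the order of neighbours was not resolved. The one pair that did not overlap was Plxnc1 (9.60 TPM) and Sema4g (7.90 TPM).

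**Figure D1:**
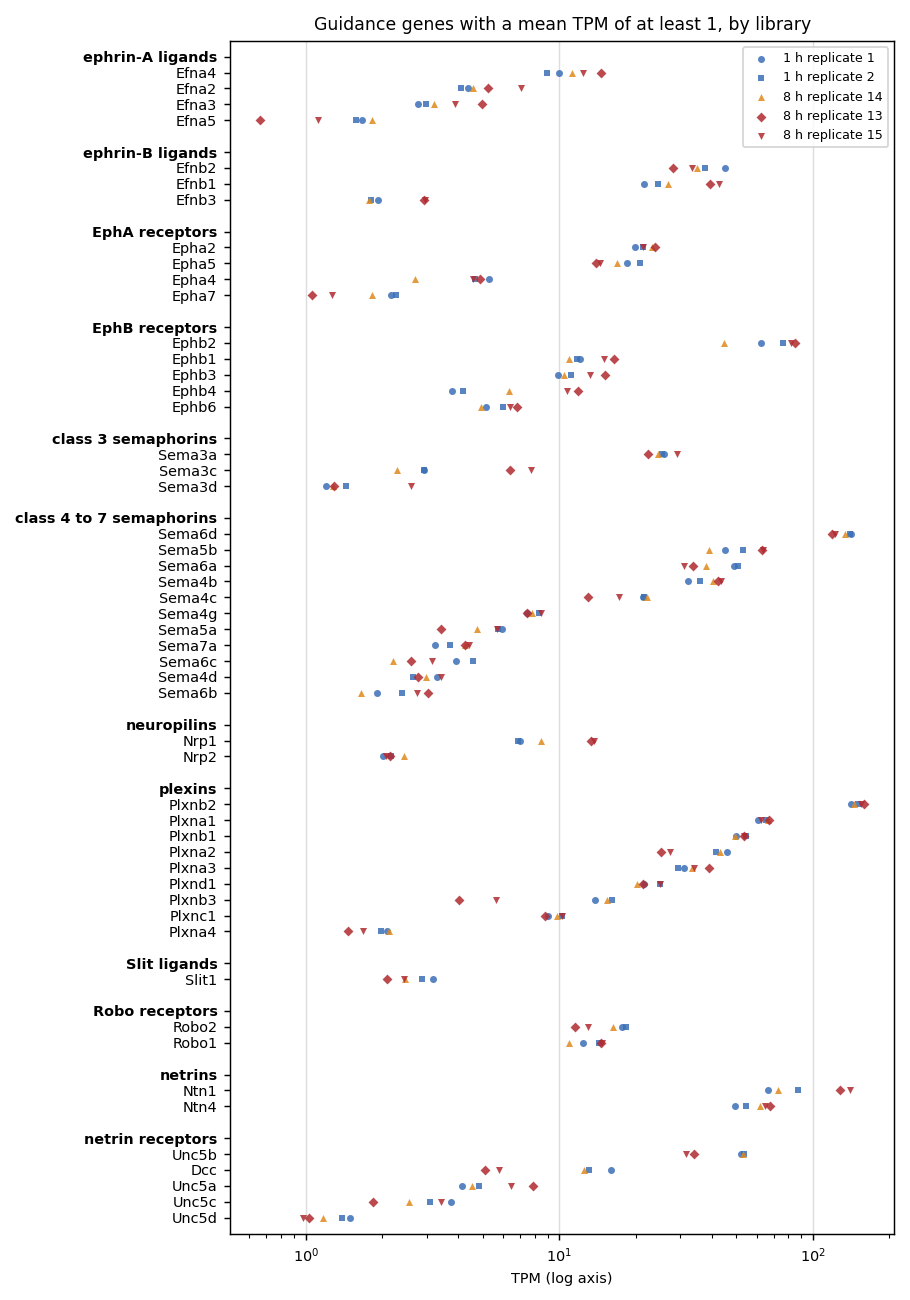
TPM (log axis) of the 51 guidance genes averaging 1 TPM or more, grouped by role, with one point per library; blue marks 1 h, orange 8 h replicate 14 and red 8 h replicates 13 and 15. Plxnb2 and Sema6d sit above 100 TPM, Slit1 lies far below Robo1 and Robo2, and the red points stand apart from the others for Plxnb3, Dcc, Sema3c and Nrp1.

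Plexins were the largest receptor group, with a mean sum of 382 TPM or 30.8% of all guidance transcripts, and all 9 plexins exceeded a mean of 1 TPM. Plxnb2, the plexin for class 4 semaphorins that is widely found in neural precursors, had the highest level of any member. It measured 141 and 151 TPM in the 1 h libraries, then 159, 145 and 155 TPM at 8 h (replicates 13, 14 and 15), a mean of 150.3 TPM (SD 7.32, n = 5). Plxna1, a partner of class 3 and class 6 semaphorins, followed with a mean of 64.4 TPM (SD 2.80, n = 5; 60.8 to 67.2 TPM). Plxnb1 had 52.2 TPM (SD 2.37, n = 5; 49.5 to 54.7 TPM). These plexins varied little between libraries, unlike Plxnb3 and Plxna2, which are described below. The neuropilins were lower, with a mean of 9.89 TPM (SD 3.41, n = 5) for Nrp1, a co-receptor for Sema3a, and 2.17 TPM (SD 0.165, n = 5) for Nrp2.

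Semaphorins of classes 4 to 7, which are mostly membrane-bound, were the largest ligand group, with a mean sum of 309 TPM. Sema6d, a transmembrane semaphorin that binds Plxna1, had 141 and 140.2 TPM in the 1 h libraries, then 119, 134 and 122 TPM at 8 h (replicates 13, 14 and 15). It made up 42.5% of its group, followed by Sema5b (mean 52.8 TPM, SD 10.9) and Sema6a (mean 40.4 TPM, SD 8.86). The secreted class 3 semaphorins summed to 33.9 TPM on average, of which Sema3a, a repellent that acts through Nrp1 and A-type plexins, held 75.2%. Sema3a measured 26.0 and 25.4 TPM in the 1 h libraries, then 22.3, 24.6 and 29.1 TPM at 8 h (replicates 13, 14 and 15), so the times overlapped. Sema3d had a mean of 1.56 TPM (1.20 to 2.61 TPM), and Sema3b, Sema3e, Sema3f and Sema3g averaged under 1 TPM.

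In the ephrin system the B subclass dominated on both sides. The EphB receptors, which bind mainly ephrin-B ligands, summed to a mean of 108 TPM against 45.9 TPM for the 9 EphA receptors. Ephb2 held 64.6% of the EphB sum, with a mean of 70.0 TPM (SD 16.6, n = 5). Ephb1 had 13.2 TPM (SD 2.37) and Ephb3 ranged from 9.85 to 15.1 TPM (SD 2.18), and all 5 EphB genes exceeded a mean of 1 TPM. Among EphA receptors, Epha2 (mean 22.0 TPM, range 19.9 to 23.9 TPM) and Epha5 (mean 16.9 TPM, SD 2.81) led, followed by Epha4, which binds both ephrin subclasses, at 4.41 TPM (SD 1.01). The 5 EphA genes Epha1, Epha3, Epha6, Epha8 and Epha10 averaged under 1 TPM. The ligands Efnb2 and Efnb1 had means of 35.8 TPM (SD 6.23) and 31.0 TPM (SD 9.49), against 2.28 TPM (SD 0.607) for Efnb3. The ephrin-A ligands, which are held to the membrane by a lipid anchor, summed to only 22.0 TPM, led by Efna4 with 11.4 TPM (SD 2.19). Efna1, Efna3 and Efna4 lie within a short stretch of chromosome 3 (chr3:89271733-89281142, chr3:89313899-89322965 and chr3:89333390-89338028, GRCm38). Their mean levels nevertheless differed, at 0.592, 3.57 and 11.4 TPM, and no library of one gene overlapped those of another.

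Slit ligands were scarce beside their receptors. Slit1 measured 3.19 and 2.87 TPM in the 1 h libraries, then 2.10, 2.47 and 2.45 TPM at 8 h (replicates 13, 14 and 15), and was the only Slit with a mean TPM of at least 1. Slit2 averaged 0.895 TPM (SD 0.219) and Slit3 0.0589 TPM (SD 0.0355), with Slit3 at 0 in 8 h replicate 13. Robo2 had 15.4 TPM (SD 2.99) and Robo1 13.4 TPM (SD 1.66), so that Robo2 was between 5.32 and 6.58 times Slit1 in every library. Robo3, which commissural axons use, averaged 0.809 TPM (0.161 to 1.67 TPM), and the mainly endothelial Robo4 0.0752 TPM.

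Netrins showed the opposite balance, with mean sums of 159 TPM for netrins and 65.1 TPM for Dcc and the Unc5 receptors. In the series 1 libraries, Ntn1 alone (66.4, 87.5 and 72.8 TPM) was near that receptor sum (77.5, 76.1 and 73.9 TPM). Ntn1, the secreted guidance cue bound by Dcc and Unc5 receptors, averaged 99.1 TPM (SD 33.3, n = 5) and Ntn4, a laminin-binding netrin, 59.6 TPM (SD 7.54, n = 5), while Ntn5 averaged 0.0924 TPM. Among their receptors, Unc5b was highest with 44.9 TPM (SD 11.1), followed by Dcc with 10.5 TPM (SD 4.81) and Unc5a with 5.57 TPM (SD 1.58). Unc5c and Unc5d had 2.93 and 1.21 TPM.

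**Figure D2:**
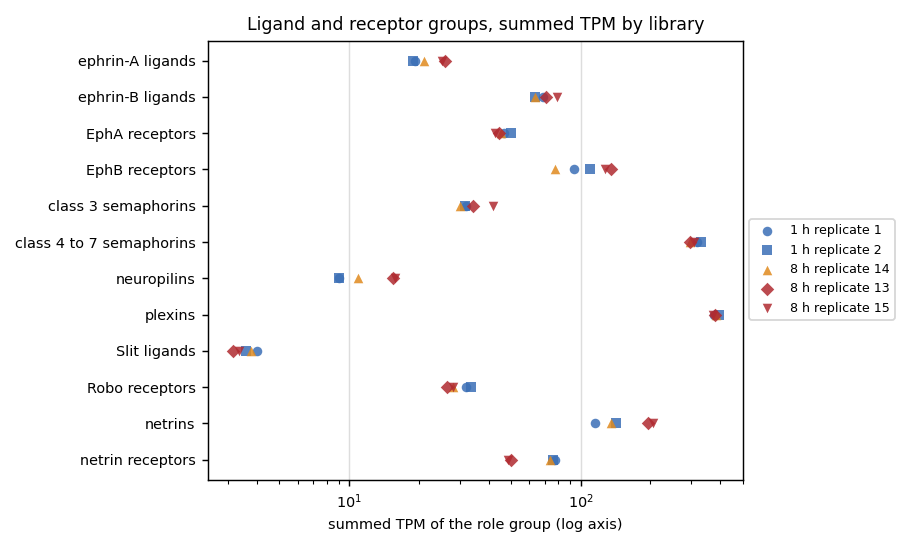
Summed TPM (log axis) of the 12 role groups in each library. Plexins and class 4 to 7 semaphorins are highest and Slit ligands lowest, and the sums of all groups but these highest ones separate 8 h replicates 13 and 15 (red) from the other libraries.

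Upstream sequences are shown for 4 receptors of opposite behaviour: Ephb2 and Ephb4, whose group had higher values throughout in identifier series 2, and Unc5b and Plxnb3, which were lower there. Each is the run of 250 bases before the gene's start in RefSeq (GRCm38.p6), written 5′ to 3′ on the gene's strand, with GC boxes (GGGCGG or its complement CCGCCC) and the E-box CAGCTG in capitals. The Ephb2 sequence is chr4:136836013-136836262 on the minus strand and that of Ephb4 chr5:137349859-137350108 on the plus strand. The Unc5b sequence is chr10:60831582-60831831 on the minus strand and that of Plxnb3 chrX:73756853-73757102 on the plus strand, where the last bases overlap the gene start given in the deposited tables.
Ephb2: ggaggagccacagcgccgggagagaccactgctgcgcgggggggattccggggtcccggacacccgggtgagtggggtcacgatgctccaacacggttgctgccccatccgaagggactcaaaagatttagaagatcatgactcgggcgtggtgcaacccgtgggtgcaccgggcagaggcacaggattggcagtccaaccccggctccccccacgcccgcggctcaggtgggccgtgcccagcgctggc
Ephb4: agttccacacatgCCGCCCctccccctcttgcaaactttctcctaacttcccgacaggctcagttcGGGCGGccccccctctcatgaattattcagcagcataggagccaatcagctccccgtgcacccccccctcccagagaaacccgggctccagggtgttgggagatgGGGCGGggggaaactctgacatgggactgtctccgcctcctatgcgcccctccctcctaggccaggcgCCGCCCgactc
Unc5b: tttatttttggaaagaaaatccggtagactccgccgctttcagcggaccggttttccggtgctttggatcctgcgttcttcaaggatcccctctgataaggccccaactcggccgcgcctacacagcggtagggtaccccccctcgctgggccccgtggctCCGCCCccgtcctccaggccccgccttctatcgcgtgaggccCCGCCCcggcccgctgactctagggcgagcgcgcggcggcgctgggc
Plxnb3: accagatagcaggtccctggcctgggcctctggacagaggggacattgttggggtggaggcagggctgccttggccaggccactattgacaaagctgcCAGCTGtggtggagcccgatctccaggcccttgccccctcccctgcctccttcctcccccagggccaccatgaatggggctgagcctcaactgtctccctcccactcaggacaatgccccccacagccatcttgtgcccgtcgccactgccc
The Ephb4 run held 4 GC boxes and that of Unc5b 2, whereas those of Ephb2 and Plxnb3 held 0, and the Plxnb3 run held 1 CAGCTG. A total of 58 of the 68 members had an entry. A GC box was present in 42 of these (72.4%), against 32.9% of 27025 promoters in all. CAGCTG was present in 9 members (15.5%; 12.8% of all promoters), CCAAT in 15 (25.9%; 34.5%), TATAAA in 2 (3.45%; 13.0%) and CACGTG in 3 (5.17%; 6.05%), each searched on both strands. Among genes averaging 1 TPM or more, with 43 members and 9447 promoters, the GC box was present in 72.1% of members and 61.5% of promoters. The same shares were 9.30% and 11.3% for CAGCTG, 23.3% and 37.2% for CCAAT, 2.33% and 5.72% for TATAAA and 4.65% and 8.54% for CACGTG. None of these strings contains another. The matches describe letters only.

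Time after PBS was compared first, as the contrast given by the labels. None of the 51 members tested passed an adjusted p of 0.05 with an absolute log2 fold change above 1 between 8 h and 1 h, against 6 of 13870 genes (0.0433%; limma on log2(TPM + 1), two-sided, Benjamini-Hochberg). At an unadjusted p under 0.05, limma gave 10 members, beside 12.3% of all genes, with 6 members higher (9.52% of all genes) and 4 lower (2.82%). The 8 h libraries all lay above the 1 h libraries in 11 members, where 23.7% of all genes did so, and all below in 11 members, where 9.43% of all genes did so. The median log2 fold change was 0.01 over the members and 0.10 over all genes tested, and division by median-ratio size factors moved these to -0.09 and 0.00. Fold changes on this scale understate the change of low genes.

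Ephb4, a receptor for Efnb2 best known from veins, was the only member with an absolute log2 fold change above 1. It measured 3.76 and 4.16 TPM in the 1 h libraries, then 11.8, 6.36 and 10.7 TPM at 8 h (replicates 13, 14 and 15). Each 8 h library was above both 1 h libraries, with replicate 14 nearest to them. The log2 fold change was 1.06 (SE 0.26), which did not pass the test over all genes (limma, adjusted p = 0.300). Its ligand Efnb2 measured 45.2 and 37.4 TPM at 1 h against 28.2, 35.0 and 33.3 TPM at 8 h, without overlap and in the other direction (log2 fold change -0.35, SE 0.14; limma, adjusted p = 0.403). The Efnb2 to Ephb4 ratio was at least 8.99 in the 1 h libraries and 2.38, 5.51 and 3.11 at 8 h.

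The other members whose 8 h libraries all lay above the 1 h libraries included Efnb1, Nrp1 and ephrin-A ligands. Efnb1 measured 21.6 and 24.4 TPM in the 1 h libraries, then 39.4, 26.8 and 42.8 TPM at 8 h (replicates 13, 14 and 15), a log2 change of 0.61 (SE 0.21; limma, adjusted p = 0.378). Nrp1 measured 6.99 and 6.87 TPM at 1 h and 13.4, 8.48 and 13.7 TPM at 8 h, a log2 change of 0.67 (SE 0.23; limma, adjusted p = 0.369). In both genes replicate 14 lay just above the 1 h libraries and the other 8 h libraries well above. The ephrin-A genes Efna4, Efna3 and Efna2 had log2 fold changes of 0.39 (SE 0.15), 0.36 (SE 0.20) and 0.32 (SE 0.20), with limma adjusted p between 0.402 and 0.491. Efna4 ranged from 8.98 to 9.96 TPM at 1 h and from 11.3 to 14.6 TPM at 8 h, Efna3 from 2.77 to 2.97 TPM and from 3.21 to 4.98 TPM, and Efna2 from 4.10 to 4.38 TPM and from 4.55 to 7.08 TPM. Ntn4 and Sema4b were steadier within each time. Ntn4 measured 49.3 and 54.6 TPM at 1 h and 67.6, 62.0 and 64.7 TPM at 8 h (log2 fold change 0.31, SE 0.10; limma, adjusted p = 0.369), and Sema4b 32.3 and 35.8 TPM against 42.2, 40.3 and 43.6 TPM (0.30, SE 0.10; limma, adjusted p = 0.380).

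Among members whose 8 h libraries all lay below the 1 h libraries, Dcc, the netrin receptor for attraction, had the largest fold change. It measured 16.0 and 13.1 TPM in the 1 h libraries, then 5.09, 12.6 and 5.77 TPM at 8 h (replicates 13, 14 and 15), a log2 change of -0.91 (SE 0.36; limma, adjusted p = 0.402). Replicate 14 lay close to the 1 h libraries. Sema6a, a ligand of Plxna2 and Plxna4, measured 48.8 and 50.6 TPM at 1 h and 33.7, 37.9 and 30.9 TPM at 8 h, with all 8 h libraries well below (-0.53, SE 0.12; limma, adjusted p = 0.286). Sema6c measured 3.91 and 4.58 TPM against 2.61, 2.20 and 3.14 TPM (-0.53, SE 0.19; limma, adjusted p = 0.380). In both of these class 6 semaphorins replicate 14 was well below the 1 h libraries, unlike in Dcc. The receptors Epha7, Robo2 and Epha5 had log2 fold changes of -0.44 (SE 0.21), -0.40 (SE 0.17) and -0.36 (SE 0.14), and Sema5a one of -0.30 (SE 0.21), with limma adjusted p between 0.396 and 0.523. Epha7 measured 2.18 and 2.26 TPM at 1 h and 1.06, 1.83 and 1.27 TPM at 8 h, and Robo2 17.7 and 18.4 TPM against 11.5, 16.2 and 13.0 TPM. Epha5 measured 18.4 and 20.8 TPM at 1 h and 14.0, 16.8 and 14.5 TPM at 8 h, and Sema5a measured 5.93 and 5.71 TPM against 3.42, 4.72 and 5.70 TPM.

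**Figure D3:**
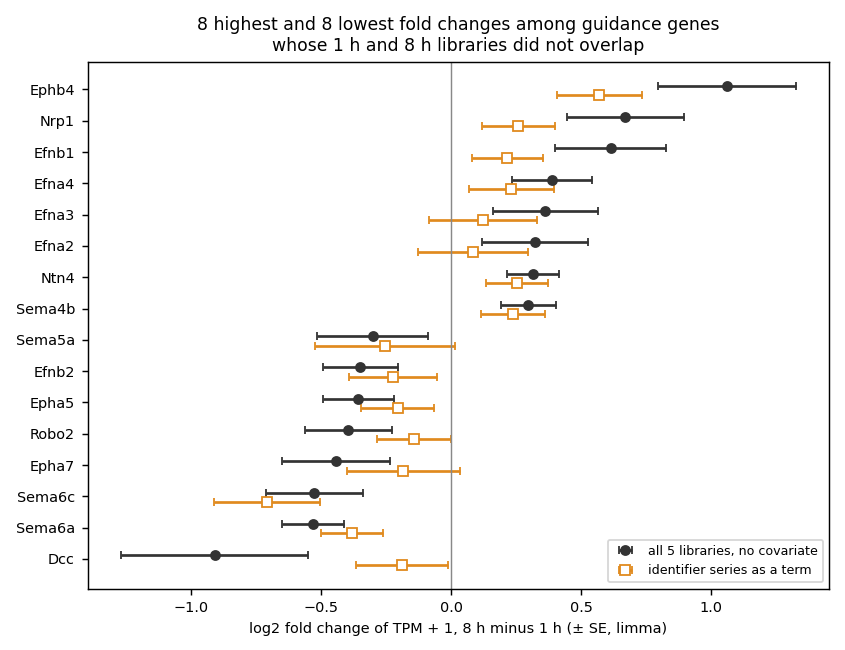
Log2 fold change of TPM + 1 from 1 h to 8 h (± SE, limma) for the 8 highest and 8 lowest guidance genes whose libraries did not overlap between times, without a covariate (filled) and with the identifier series as a term (open). The open points are nearer to 0 in all but Sema6c, whose value goes from -0.53 to -0.71, and Dcc moves most, from -0.91 to -0.19.

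With the identifier series as a term, the time coefficient compares 8 h replicate 14 with the 1 h libraries of its own series. In that fit 0 members and 19 of 13870 genes (0.137%) were called by limma, and 5 members had an unadjusted p under 0.05, beside 9.06% of all genes. Ephb4 was higher (0.57, SE 0.16), and Sema6c (-0.71, SE 0.21), Epha4 (-0.69, SE 0.18), Ephb2 (-0.61, SE 0.15) and Sema6a (-0.38, SE 0.12) were lower, none past the adjusted threshold (limma, adjusted p between 0.368 and 0.440). Dcc, Nrp1 and Efnb1 came to -0.19, 0.26 and 0.22. Without 8 h replicate 14, time and series divide the libraries alike. In that fit 568 of 13870 genes were called, and 4 of 51 members. At an unadjusted p under 0.05, limma gave 5183 genes and 27 members. The 4 members called were Ephb4 (1.31, SE 0.13; limma, adjusted p = 0.00450) and Sema3c (1.03, SE 0.15; 0.0114), which were higher, and Plxnb3 (-1.46, SE 0.17; 0.00675) and Dcc (-1.27, SE 0.15; 0.00608), which were lower.

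The count table holds 42 of the members among 7599 genes, without Dcc, Sema6c and Robo2, and gives a further reading of the same contrast. Its columns did not all match the TPM tables of the libraries they are named for. The column named 8 h replicate 13 matched the table of replicate 14 (78.3% of 6860 genes within 0.1 log2), the column named replicate 15 matched the table of replicate 13 (76.9%), and the column named replicate 14 matched none (at most 38.2%). Exchanged names within 8 h leave the comparison of times as it is, but the identity of the third column is unknown. Of the 42 members, 0 were called by edgeR's quasi-likelihood test, as were 0 of 7590 genes tested (0%), and DESeq2 also called 0 genes. At an unadjusted p under 0.05 edgeR gave 3 members and 2.62% of all genes, and DESeq2 gave 4 members. The 3 were Ephb4 (log2 fold change 1.07), Efnb1 (0.42) and Epha5 (-0.43), each with an adjusted p of 0.966 in edgeR. Ephb4 had 12.2 and 13.1 CPM (counts scaled to the column total) at 1 h and 21.6, 25.9 and 33.4 CPM in the columns named 8 h replicates 13, 14 and 15, so that it was higher at 8 h in every column, the unmatched one included. Nrp1, Efnb1, Efna4, Efna3, Efna2 and Epha5 were also without overlap in the counts, in the direction of the TPM tables. The nearest columns of the times were almost equal for Efna2 (6.86 and 6.94 CPM) and Efna3 (5.02 and 5.05 CPM). How many of all genes were without overlap in the counts was not computed. Ntn4 (log2 fold change 0.08), Sema4b (0.05), Sema6a (-0.26), Epha7 (-0.11) and Efnb2 (-0.10) overlapped between times in the counts, where the column named 8 h replicate 14 had 286 CPM of Sema6a against 252 and 275 CPM at 1 h. Sema5a differed in sign from the TPM tables (0.38), with 45.5 and 44.2 CPM at 1 h and 35.6, 119.7 and 23.7 CPM at 8 h, so that only the column named replicate 14 was higher. None of these passed the test (edgeR, adjusted p of at least 0.966).

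The identifier series was then compared with time as a term, to describe how the members divide between the library sets. This coefficient is the difference between 8 h replicates 13 and 15 and the single 8 h library of series 1, replicate 14, and it cannot be told apart from what is particular to that library or from Y-linked expression. A total of 558 of 13870 genes (4.02%) were called by limma, of which 462 were higher and 96 lower in series 2, and 3 of 51 members were among them. Without the fold change threshold 9 members had an adjusted p of at most 0.05, beside 9.09% of all genes. Series 2 lay wholly above series 1 in 21 members, as it did in 39.8% of all genes, and wholly below in 15, as it did in 13.5%. The median coefficient was 0.09 over the members and 0.11 over all genes, or -0.03 and 0.00 after median-ratio scaling. Without 8 h replicate 13, 63 genes and 0 members were called, and without 8 h replicate 15, 23 genes and 0 members, where the limma adjusted p of Plxnb3, Dcc and Sema3c lay between 0.0607 and 0.108. Each of the 9 members missed an adjusted p of 0.05 in at least 1 fit that left out a library (limma, adjusted p up to 0.168). In bulk RNA, fewer cells of a type and less RNA per cell cannot be told apart.

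All 5 EphB receptors had higher values in series 2, without overlap between the series, and 2 of them, Ephb2 and Ephb4, passed an adjusted p of 0.05. Of all genes, 39.8% lay wholly above in series 2, and 7.44% were higher at an adjusted p of at most 0.05. Ephb2 (chr4:136647539-136835988, minus strand) measured 62.3, 76.3 and 44.7 TPM in series 1 and 84.7 and 82.1 TPM in series 2. Its coefficient was 0.88 (SE 0.15; limma, adjusted p = 0.0246), and replicate 14 was the lowest library. Without time as a term the Ephb2 coefficient was 0.48 (limma, adjusted p = 0.143). Ephb4 (chr5:137350109-137378669, plus strand) had a coefficient of 0.74 (SE 0.16; limma, adjusted p = 0.0494), which was 1.12 without time as a term (adjusted p = 0.0131). It missed an adjusted p of 0.05 after median-ratio scaling (0.62; limma, adjusted p = 0.0877) or with a pseudocount of 0.1 (0.81; limma, adjusted p = 0.0531). Its values separated by time as well as by series, so that Ephb2 was 16.6 and 18.3 times Ephb4 at 1 h and between 7.03 and 7.67 times Ephb4 in each 8 h library. Ephb1, Ephb3 and Ephb6 had coefficients of 0.49, 0.40 and 0.36 that missed the threshold (limma, adjusted p between 0.0846 and 0.250). Of the ligands, Efnb1 had a coefficient of 0.60 (SE 0.14; limma, adjusted p = 0.0535), while that of Efnb2 was -0.19 (SE 0.17; limma, adjusted p = 0.535). Efnb1 was 0.477, 0.653 and 0.765 times Efnb2 in the series 1 libraries and 1.40 and 1.29 times Efnb2 in 8 h replicates 13 and 15. Efnb1, Plxnb3 and Plxna3 were the 3 members on the X chromosome, and their coefficients of 0.60, -1.51 and 0.12 had no common direction.

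In the netrin system Ntn1 was higher in series 2, and its receptors Unc5b and Dcc were lower. Ntn1 (chr11:68209364-68400823) measured 66.4, 87.5 and 72.8 TPM in the series 1 libraries and 128 and 140.1 TPM in series 2. Its coefficient was 0.87 (SE 0.18; limma, adjusted p = 0.0411), and the series did not overlap. Unc5b (chr10:60762610-60831581, minus strand) was at 52.2, 53.6 and 53.1 TPM in series 1 and 33.9 and 31.7 TPM in series 2 (-0.68, SE 0.11; limma, adjusted p = 0.0253). The series 1 libraries lay close together across both times. The Ntn1 to Unc5b ratio was 1.27, 1.63 and 1.37 in series 1 and 3.79 and 4.42 in series 2. Dcc (chr18:71258738-72351069) had a coefficient of -1.08 (SE 0.18; limma, adjusted p = 0.0239), and its series 2 libraries lay far below those of series 1. Unc5a was at 4.14, 4.82 and 4.51 TPM in series 1 and at 7.91 and 6.46 TPM in series 2, and missed the threshold (0.56, SE 0.19; limma, adjusted p = 0.137).

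In the semaphorin system the largest coefficient was that of Plxnb3 (chrX:73757090-73772514), a receptor for Sema5a. It measured 13.9, 16.1 and 15.5 TPM in series 1 and 4.04 and 5.61 TPM in series 2, a coefficient of -1.51 (SE 0.21; limma, adjusted p = 0.0151). Sema3c (chr5:17574281-17730268), a secreted semaphorin, measured 2.94, 2.92 and 2.30 TPM in series 1 and 6.38 and 7.73 TPM in series 2, a coefficient of 1.28 (SE 0.19; limma, adjusted p = 0.0182). Neither gene's series overlapped, and within series 1 replicate 14 lay near the 1 h libraries. Sema5b, at 44.9, 53.0 and 39.1 TPM in series 1, was at 63.1 and 63.8 TPM in series 2 (0.69, SE 0.14; limma, adjusted p = 0.0385). Replicate 14 was its lowest library, and the Sema5b coefficient was 0.48 without time as a term. Plxna2, the receptor of Sema6a, was at 45.7, 41.4 and 43.2 TPM in series 1 and at 25.2 and 27.4 TPM in series 2 (-0.70, SE 0.13; limma, adjusted p = 0.0319), whereas Plxna1 had a coefficient of -0.04 (SE 0.12; limma, adjusted p = 0.854). Nrp1 just missed the threshold (0.62, SE 0.14; limma, adjusted p = 0.0519). Efna5, Sema4c, Epha7 and Robo2 were lower in series 2 without overlap and without passing the test (-0.59, -0.54, -0.39 and -0.38; limma, adjusted p between 0.132 and 0.317).

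**Figure D4:**
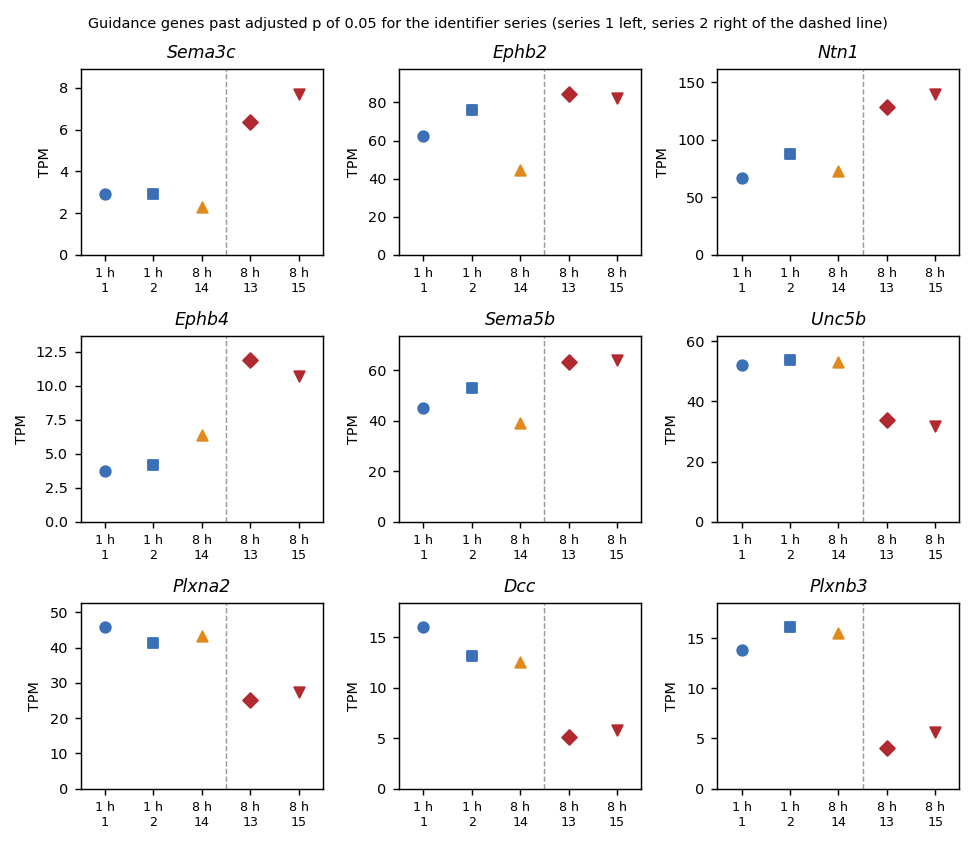
TPM in each library for the 9 guidance genes with an adjusted p of at most 0.05 for the identifier series, with series 1 (1 h replicates 1 and 2, 8 h replicate 14) left and series 2 (8 h replicates 13 and 15) right of the dashed line, each axis starting at 0. Sema3c, Ephb2, Ntn1, Ephb4 and Sema5b are higher in series 2, and Unc5b, Plxna2, Dcc and Plxnb3 are lower.

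Some markers moved with the same split. At an adjusted p of at most 0.05, 5 of the 9 stem and precursor markers were higher in series 2 and 0 lower. Of all genes, 7.44% were higher and 1.65% lower by the same rule. The summed list was at 11049 and 11989 TPM in series 2 against 9198 to 9758 TPM in series 1. Most of it was Fabp7 (mean 8582 TPM), which missed the threshold (0.33; limma, adjusted p = 0.0908). Nes lay wholly below in series 2 (-0.18; limma, adjusted p = 0.268), and Sox2 had a coefficient of -0.15 (limma, adjusted p = 0.554). Mbp, a myelin protein gene, was lower in series 2 (38.5, 31.7 and 27.8 TPM against 7.96 and 11.0 TPM; coefficient -1.48, limma, adjusted p = 0.0172). The median coefficient of the 6 oligodendrocyte lineage markers tested was -0.26. Cspg4 (-0.85), Sox10 (-0.44) and Pdgfra (-0.09) were also below 0, and Olig1 (0.63) and Olig2 (0.57) above it. Of these, only Olig2 passed an adjusted p of 0.05 (limma, adjusted p = 0.0495). The list as a whole summed to 1761, 2200 and 1559 TPM in series 1 and 2122 and 2412 TPM in series 2. Most of that sum was Olig1 and Olig2, with means of 1345 and 536 TPM. Of the 4 neuronal markers tested, Tubb3 was lower (-0.93; limma, adjusted p = 0.0130), while Dcx (0.47), Snap25 (0.38) and Rbfox3 (0.02) did not pass the test (limma, adjusted p between 0.219 and 0.974), and the median of the list was 0.20. The part of these markers in the values of the guidance genes was not tested.

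Genes that carry the guidance signal inside the cell were present throughout. All 39 listed effectors had a mean TPM of at least 1, led by Cfl1, the actin-severing cofilin, with 3312 TPM (SD 203). Between 8 h and 1 h, 0 of the 39 were called, beside 0.0433% of all genes. Without overlap, 6 lay above and 7 below, beside 23.7% and 9.43% of all genes. The median log2 fold change of the effectors was 0.02 against 0.10 over all genes. Their extremes were Limk2, a kinase that inactivates cofilin (0.31; limma, adjusted p = 0.424), and Mical2, an actin-oxidising enzyme (-0.59; limma, adjusted p = 0.466). In the series comparison 1 of the 39 was called, beside 4.02% of all genes. It was Mical2, at 56.1, 44.8 and 53.0 TPM in series 1 and 23.8 and 28.1 TPM in series 2 (-1.01, SE 0.18; limma, adjusted p = 0.0288). Of 14 co-receptors and modulators, 11 were tested and 0 were called in either comparison, beside the same shares of all genes. The highest was Adam10, a protease that sheds ephrins, with 132 TPM (SD 6.93), and Flrt2 (0.31) and Flrt3 (-0.40) had the extreme fold changes over time (limma, adjusted p = 0.441 and 0.343).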

How the data were processed

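Members and gene lists were chosen with earlier results of these data known. Groups were taken from the labels. The authors aligned reads to GRCm38 with STAR in nf-core/rnaseq (demultiplexing with bcl2fastq 2.19.1.403, per the labels). The authors deposited a table per library with TPM, FPKM and per-base coverage (tool not given in the sources used here) and raw featureCounts counts for part of the genes. TPM was summed per gene identifier, and the deposited coverage and FPKM values served only as a depth ratio. Count totals of 13988166 to 18572154 cover that part of the genes only. CPM was computed from the counts.

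limma 3.58.1 (R 4.3.3) with an intensity trend was fitted on log2(TPM + 1) for genes averaging 1 TPM or more. Counts were tested with edgeR 4.0.16 (quasi-likelihood, TMM, filterByExpr), with DESeq2 1.42.0 (alpha 0.1) as an alternative. Calls required an absolute log2 fold change above 1 with an adjusted p no higher than 0.05, and all tests were two-sided. The fits were tested on simulated data. Named genes are the 3 highest of each role group, and up to 8 in each direction with the largest change of time or identifier series among members without overlap. Effector and marker genes were named by highest mean or largest change, and other markers of the series comparison after their values were seen. The Y-linked genes, Xist, and markers at 0 or given for the cell type were named after their values were seen, as were ephrin-A neighbours on chromosome 3 and members under 1 TPM. Each count column was assigned by its name, although not all matched the TPM table of that name. Promoter sequences are RefSeq's (GRCm38.p6). The 46078 genes, their symbols and coordinates are those of the deposited tables. Leaving out libraries, other filters, scalings and pseudocounts (0.1) were tried as alternatives.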

Additional observations from a re-analysis of the deposited data

How the results depend on the processing

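No paired analysis was possible because the 1 h and 8 h groups share no replicate number. For 8 h against 1 h in TPM, the 6 genes called became 0 without a filter on low values and 19 with the identifier series as a term, and leaving out 1 library gave 0 to 568 genes. The members called stayed at 0 except without 8 h replicate 14, where they were 4 (leave-one-out range 0 to 4). Among the counts, 0 members were called under every alternative run. For the identifier series, the 558 genes called became 0 without the filter and 1261 without a fold change threshold, an alternative added after seeing the data. The 3 members called became 0 and 9 under these. Leaving out 1 library gave 23 to 644 genes and 0 to 3 members, with 63 genes and 0 members without 8 h replicate 13 and 23 genes and 0 members without 8 h replicate 15. The cause of these differences was not tested. The fit without 8 h replicate 14 could not be made for the series, as time and series then coincide.

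Of the fold changes of single named members over time, 174 of 176 alternative values kept their direction and side of the threshold. The other 2 passed it, both without 8 h replicate 14 (Ephb4 and Dcc). These members were chosen for having no overlap between times, and none was called in the main fit. The outcome was thus largely set by that choice and does not measure how stable the fold changes are. For the series, 128 of 144 kept both, 9 no longer passed and 7 newly passed, and 0 reversed. Those members were likewise chosen for having no overlap between the series, so the lack of reversals follows largely from that choice. Without the time term, the series coefficient was 1.12 for Ephb4 (limma, adjusted p = 0.0131) and 0.48 for Ephb2 (limma, adjusted p = 0.143), and 4 members and 522 genes were called. With 2 and 3 libraries per time, small changes could not be detected and larger ones could be missed. Even the log2 fold change of 1.06 of Ephb4 did not pass (limma, adjusted p = 0.300), so the lack of calls does not exclude changes of that size. The unknown identity of the count column named 8 h replicate 14 limits the count results.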
